A study of Mus musculus with 8 samples.

Results

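Dendritic cell transcripts were examined in macrophages selected for the surface protein F4/80 from obese mouse adipose tissue. The set was given as 10 gene symbols: Flt3, Zbtb46, Xcr1, Clec9a, Ccr7, Itgae, Cd209a, Irf8, Batf3 and Dpp4. Of these, 9 matched a row by symbol among the 15867 named rows of the table of normalized counts, and Itgae was not analysed here. RNA had been sequenced from 8 samples in 2 groups of 4 replicates, all from mice on a high-fat diet for 20 weeks and all carrying loxP-flanked alleles of the microRNA clusters Mirc11 and Mirc22. The control group was Lyz2+/+. The knockout group was Lyz2Cre/Cre, with Cre recombinase knocked into both Lyz2 alleles, so that Cre, the loss of Lyz2 and the loss of the clusters came together and cannot be told apart. Lyz2 drives Cre in macrophages, monocytes and neutrophils and in only a part of dendritic cells. The labels give neither the age of the mice nor whether a replicate was 1 animal; the spread behind each p-value is that between the samples, and it may be technical.

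Conventional dendritic cells arise from precursors that need the receptor Flt3, and they carry antigen to lymph nodes and present it to T cells. The type 1 branch depends on the transcription factors Irf8 and Batf3 and bears Xcr1 and Clec9a. The type 2 branch presents antigen mainly to helper T cells, and Ccr7 guides mature cells of either branch to lymph nodes. Several of these genes are also used by other cells of adipose tissue: Irf8 by macrophages and B cells, Zbtb46 by endothelial cells, Ccr7 by T and B cells, and Dpp4 by T cells and by fibroblast progenitors.

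Values are normalized counts, that is, reads divided by a library factor set by the authors. A difference is the limma estimate on the scale of log2(normalized count + 1), with positive values meaning more in the knockout group, and it understates the change of scarce genes. Here the adjusted p is Benjamini-Hochberg adjusted over 15862 genes with a mean of at least 10, a level that all 9 transcripts exceeded. Recovered totals ran from 31789395 to 46621080 reads per library. Adgre1, which encodes F4/80, averaged 47340 ± 7761 (SD, n = 4) normalized counts in the control and 40553 ± 2504 in the knockout group. The labelled cell type thus had its defining marker, but genes of other cells were abundant too. The collagen gene Col3a1 averaged 54903 ± 12241 in control and 75438 ± 18411 in knockout libraries. The endothelial gene Vwf averaged 24878 ± 5937 and 32507 ± 6251. Lyz2, the gene that holds Cre, measured at least 156727 in each control and at most 273.3 in each knockout library, as all 8 labels have it.

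None of the 9 transcripts passed the adjusted p of 0.05 in limma or in edgeR. Irf8 was the closest, with 0.788 times the control level in the knockout libraries, followed by Zbtb46 and Dpp4, each with 1.56 times the control level. Of all tested genes 3.61% passed in limma, and 3.51% in edgeR. At an unadjusted limma p under 0.05 there were 3 of the 9, Zbtb46 and Dpp4 above and Irf8 below control, where 21.2% of all tested genes reached that level, 10.8% above and 10.4% below. DESeq2 on the recovered reads called 2 of the 9, Zbtb46 as higher and Irf8 as lower, against 10.9% of all genes given an adjusted p (4.66% higher and 6.23% lower). The groups were fully separate for Zbtb46 and Irf8 only, as they were for 13.7% of all tested genes (5.52% higher and 8.21% lower in the knockout group). The median difference of the 9 was 0.42, beside 0.00 for all tested genes, with 7 differences above 0 and 2 below. In a bulk sample, more cells of a type and more RNA per cell cannot be told apart.

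**Figure D1:**
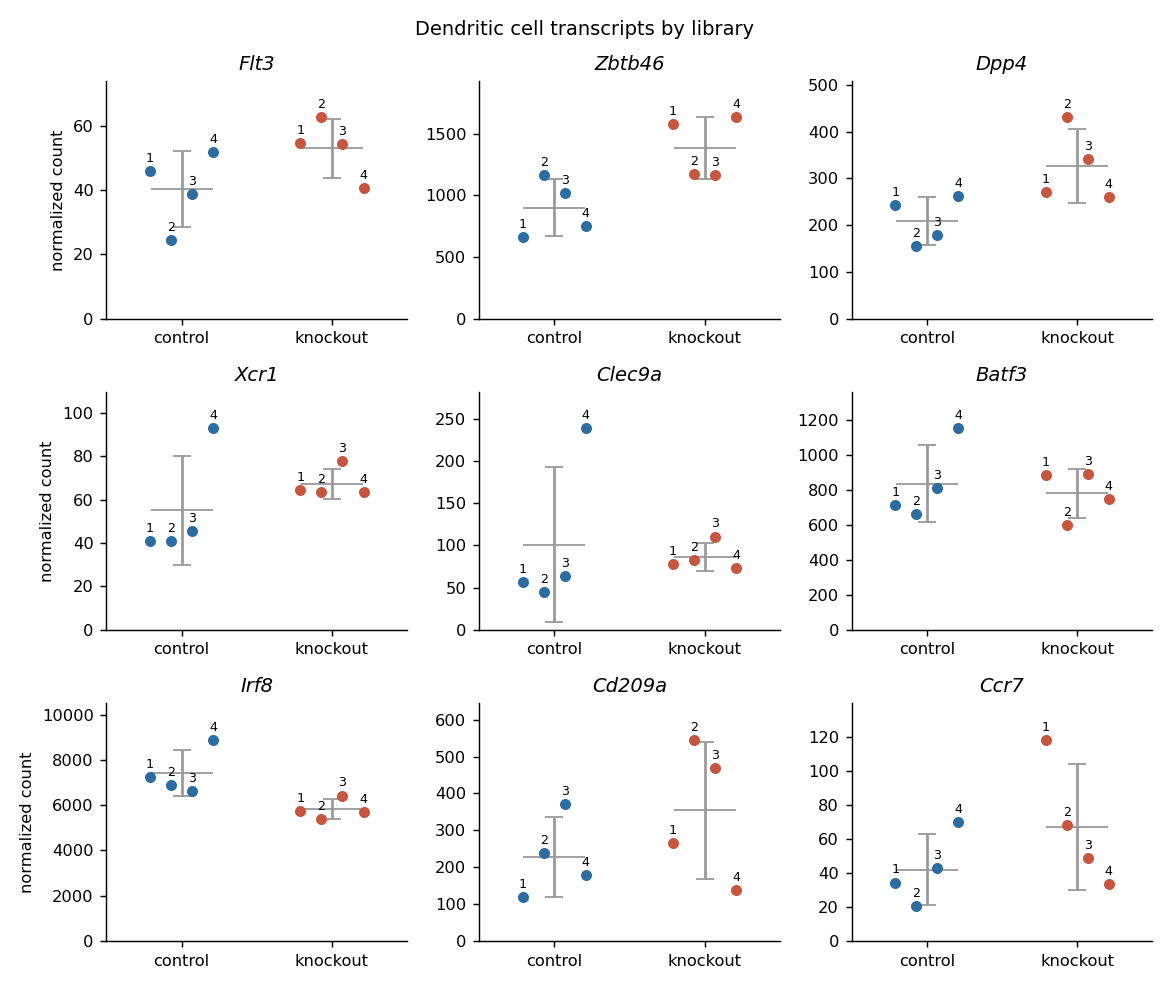
Normalized counts (vertical axes, from 0) of the 9 dendritic cell transcripts in each library; dots are libraries with their replicate number, blue for control and red for knockout, and grey bars are the group mean and SD (n = 4). Zbtb46 and Irf8 have no overlap between groups, and control replicate 4 stands above the other controls for Clec9a (238.6) and Xcr1 (92.8).

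Levels differed widely between the transcripts. Per kilobase of exon sequence, the mean normalized count in control libraries was 1051.6 ± 144.4 (SD, n = 4) for Irf8 and 523.2 ± 138.0 for Batf3. Cd209a (143.4 ± 68.3) and Zbtb46 (105.7 ± 27.3) came next on this per-kilobase scale, and the mean of Zbtb46 lay within the SD of Cd209a but not the reverse. Dpp4 (33.2 ± 8.11), Clec9a (30.6 ± 28.0) and Ccr7 (21.2 ± 10.6) followed. The means of Dpp4 and Clec9a, and of Clec9a and Ccr7, lay within each other's SD, whereas those of Dpp4 and Ccr7 did not. Xcr1 (12.3 ± 5.69) and Flt3 (6.51 ± 1.92) were lowest. Adgre1 stood at 14620 normalized counts per kilobase in the same libraries. Flt3 rested on 24 to 62 reads per library and Xcr1 on 40 to 93, and Clec9a reached 239 reads in 1 library.

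The deleted clusters encode miR-23, miR-24 and miR-27 microRNAs, which repress transcripts through matches to the seed. Their mature sequences (RefSeq, GRCm38.p6) are shown to make the sites in the 9 transcripts readable, with the seed, bases 2 to 8, in capitals. The miR-23b-3p sequence is not shown. The members of the miR-27 family share their seed.
miR-23a-3p: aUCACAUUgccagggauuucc
miR-27a-3p: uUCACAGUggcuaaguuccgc
miR-27b-3p: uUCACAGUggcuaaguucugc
miR-24-3p: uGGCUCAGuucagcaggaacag

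Seed matches in the longest annotated 3′ untranslated region (GENCODE M21, mm10) were few. Dpp4 held the 8-base match to miR-23, AATGTGAA, which 7.5% of 14863 genes with such a region hold. Zbtb46 held the 7-base match to miR-23, AATGTGA (17.6% of genes), and Xcr1 the 7-base match to miR-24, CTGAGCC (21.1%). The same search, on the transcript strand, for ACTGTGA, the miR-27 match, found none in these regions of the 9 transcripts. Flt3, Clec9a, Ccr7, Cd209a, Irf8 and Batf3 held no match to any of the families. The Dpp4, Zbtb46 and Xcr1 regions are 2545, 3302 and 3364 bases long, beside a median of 1353 bases over all genes, and a longer region holds a given word more often. A match describes the letters and does not show binding. The sites are given as DNA on the transcript strand, with the match in capitals.
Dpp4, chr2:62330503-62330530, minus strand: aaatggtgatAATGTGAAtaaattcagt
Zbtb46, chr2:181388656-181388683, minus strand: tttttttttaAATGTGActttttttaaa
Xcr1, chr9:123855180-123855207, minus strand: gaagatggttCTGAGCCgggtgtggtgg

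Flt3, the receptor for the growth factor Flt3 ligand (chromosome 5, 147330741 to 147400489 in mm10), was the least abundant per kilobase. Its normalized counts were 45.8, 24.4, 38.6 and 51.9 in control and 54.5, 62.6, 54.2 and 40.5 in knockout replicates 1 to 4. The groups overlapped, with knockout replicate 4 inside the control range. The difference was 0.42 (SE 0.26, limma adjusted p = 0.385). Flt3l, which encodes the ligand, measured 802.4 ± 101.9 in control and 978.6 ± 39.1 in knockout libraries (0.29, SE 0.09, adjusted p = 0.114).

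Zbtb46 encodes a zinc finger factor that separates conventional dendritic cells from macrophages within the myeloid lineage, and it is also made by endothelial cells (chromosome 2, 181387762 to 181459426). It measured, in normalized counts, 662.2, 1163.8, 1019.6 and 751.7 in control and 1575.7, 1170.3, 1165.9 and 1632.8 in knockout replicates 1 to 4. All knockout libraries lay above all controls, but knockout replicates 2 and 3 were close to control replicate 2. The means were 899.3 ± 232.7 and 1386.2 ± 252.9, and the difference of 0.64 (SE 0.19) had an adjusted p of 0.107 in limma and 0.117 in edgeR. DESeq2 on the recovered reads gave 0.63 with an adjusted p of 0.0214. The authors' deposited DESeq2 result has the same adjusted p, by the same method on the same libraries, and is no separate evidence.

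Endothelial genes differed between the libraries in nearly the same order as Zbtb46. The summed normalized counts of 7 endothelial genes (Pecam1, Cdh5, Kdr, Tek, Emcn, Cldn5 and Vwf), all of them measured and none near 0, were 56292, 95467, 90602 and 65922 in control and 126449, 91942, 87784 and 120390 in knockout replicates 1 to 4. Zbtb46 and this sum ranked the 4 control libraries identically, and in the knockout group they ranked replicates 3 and 2 lowest and replicates 1 and 4 highest. Per 1000 endothelial counts, Zbtb46 stood at 11.3 to 12.2 in every control and at 12.5 to 13.6 in every knockout library, a ratio chosen after the values were seen. That ratio spanned 1.2 times from the lowest to the highest of the 8 libraries, where Zbtb46 itself spanned 2.47 times. The part of endothelial RNA in the Zbtb46 difference was not tested. All 7 endothelial genes had a difference above 0 (median 0.51), with 0 past the threshold in limma or edgeR. At an unadjusted limma p under 0.05 there were 5, beside 10.8% of all tested genes higher. DESeq2 called 2 higher, beside 4.66% of genes given an adjusted p. Cldn5, a tight junction protein of endothelium, measured 7529.9 ± 2270.3 and 11880.2 ± 2397.7 (0.69, SE 0.22, adjusted p = 0.128).

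**Figure D2:**
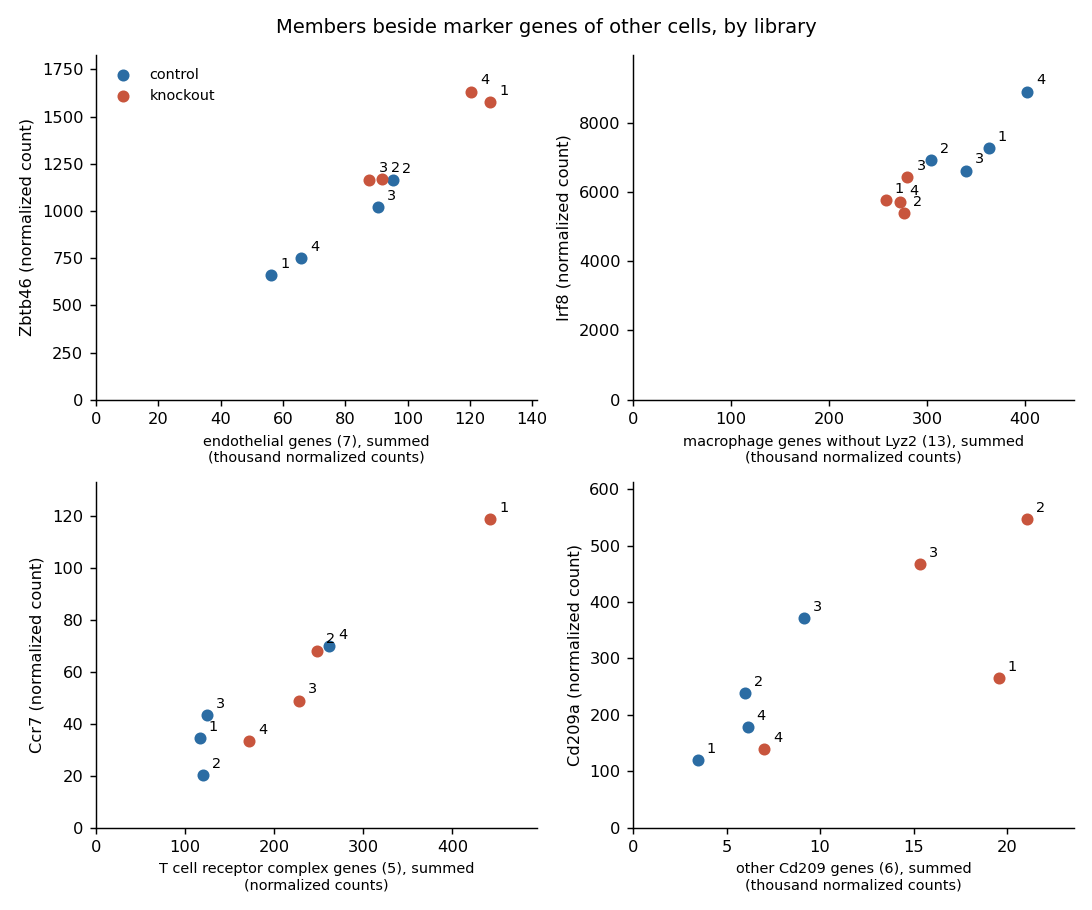
Each panel sets the normalized count of 1 transcript (vertical axis, from 0) against the summed normalized counts of marker genes (horizontal axis, from 0) in the 8 libraries, blue for control and red for knockout, with replicate numbers beside the dots. Zbtb46 mostly lies higher where endothelial genes do and Ccr7 where T cell receptor complex genes do, pairings chosen after the values were seen. Irf8 and macrophage genes are both lower in the knockout libraries, but rank differently within each group. The Cd209a panel spreads more widely.

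Dpp4 encodes the surface peptidase CD26, which conventional dendritic cells, T cells and fibroblast progenitors carry (chromosome 2, 62330073 to 62412231). Its normalized counts were 243.9, 154.5, 178.5 and 261.6 in control and 271.6, 430.8, 342.2 and 261.0 in knockout replicates 1 to 4. The groups overlapped only through control replicate 4 and knockout replicate 4, which were almost level. The difference was 0.64 (SE 0.21, adjusted p = 0.134 in limma, 0.139 in edgeR and 0.0515 in DESeq2). Annotated exons of Gm13561, on the opposite strand, overlap those of Dpp4, and no source used here states whether counting used the strand, so reads of the pair may not be told apart. The summed counts of 12 fibroblast and progenitor genes, all measured and with Wnt2 the lowest at 20.0 to 60.2, spanned 102979 to 173315 in the control group and 138203 to 209635 in the knockout group. Per 100000 of these counts, Dpp4 stood at 127.4 to 254.0 (control) and 138.9 to 285.3 (knockout), so this ratio overlapped between the groups, and the part of fibroblast RNA in the Dpp4 difference was not tested.

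Xcr1 encodes the receptor for the chemokine Xcl1 and marks type 1 dendritic cells (chromosome 9, 123852315 to 123862029). In normalized counts it stood at 40.9, 40.7, 45.5 and 92.8 in control and 64.2, 63.7, 77.6 and 63.7 in knockout replicates 1 to 4. Control replicate 4 was the highest of all 8 libraries, and the other 3 controls lay below every knockout library. With all libraries the difference was 0.37 (SE 0.27, limma adjusted p = 0.466). Without control replicate 4 it was 0.65 (SE 0.16, adjusted p = 0.0877), which also did not pass. Leaving out any other single library gave 0.26 (without control replicate 2) to 0.40 (without knockout replicate 2 or 4).

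Clec9a, the lectin through which type 1 dendritic cells sense dead cells (chromosome 6, 129408862 to 129424763), showed the same pattern more sharply. Its normalized counts were 56.5, 44.7, 63.7 and 238.6 in control and 78.2, 82.4, 110.5 and 72.8 in knockout replicates 1 to 4. Control replicate 4 reached 4.34 times the mean of the other controls, while those 3 controls again lay below every knockout library. The control mean of 100.9 ± 92.1 thus exceeded the knockout mean of 86.0 ± 16.8, whereas the log2 difference was 0.10 (SE 0.47, limma adjusted p = 0.927). Without control replicate 4 the difference was 0.63 (SE 0.20, adjusted p = 0.164). Leaving out any other single library gave -0.16 (without control replicate 2) to 0.18 (without knockout replicate 4). The ratio of Clec9a to Xcr1 counts, 1.10 to 1.42 in the other 7 libraries, was 2.57 in control replicate 4. Of the 31-base words of Clec9a transcripts 4.63% are shared with Clec1b, whose exons overlap it on the same strand. Clec1b measured 45.0, 35.6, 33.0 and 28.0 in control replicates 1 to 4, so it was lowest among controls where Clec9a was highest.

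Batf3 encodes the AP-1 family factor required for the development of type 1 dendritic cells (chromosome 1, 191097847 to 191108945). It stood, in normalized counts, at 717.1, 661.7, 810.4 and 1153.0 in control and 885.0, 598.9, 892.8 and 748.6 in knockout replicates 1 to 4. Control replicate 4 was again the highest library, and the groups overlapped across most of their range. The difference was -0.08 (SE 0.19, adjusted p = 0.848 in limma), and it turned to 0.09 (SE 0.15) without control replicate 4 and to 0.04 without knockout replicate 2.

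Irf8 encodes the interferon regulatory factor that specifies type 1 dendritic cells and is also made by macrophages, monocytes and B cells (chromosome 8, 120736358 to 120756694). Its normalized counts were 7256.7, 6907.6, 6615.4 and 8895.7 in control and 5753.5, 5389.1, 6422.8 and 5705.7 in knockout replicates 1 to 4. Every knockout library lay below every control, the closest being knockout replicate 3 and control replicate 3. The difference was -0.34 (SE 0.10, adjusted p = 0.0885 in limma and 0.0976 in edgeR), and DESeq2 gave -0.35 with an adjusted p of 0.0154. The authors' deposited DESeq2 result for Irf8, by the same method on the same libraries, has the same adjusted p of 0.0154.

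Irf8 and the macrophage genes were both lower in the knockout group. The summed counts of 13 macrophage genes without Lyz2, all measured, lay at 304324 to 402218 in control and at 257768 to 279976 in knockout libraries. That sum did not overlap between the groups either, and control replicate 4 was highest for both. Within each group the libraries ranked differently. Irf8 was lowest in knockout replicate 2 and the sum in knockout replicate 1. Per 1000 of these counts Irf8 stood at 20.0, 22.7, 19.5 and 22.1 in control and 22.3, 19.5, 22.9 and 20.9 in knockout replicates 1 to 4. The groups overlapped throughout in this ratio, which was chosen after the values were seen, and the part of macrophage RNA in the Irf8 difference was not tested. Of 14 macrophage genes including Lyz2, 6 fell and 8 did not pass, where 2.38% of all tested genes passed as lower. Lyz2 itself is among the 6, and its loss comes with the knock-in of Cre. Over the same 14 genes the number was 2 without knockout replicate 1 and 3 without control replicate 3 or knockout replicate 4. Itgam, the integrin CD11b, fell from 19876 ± 1400 to 14328 ± 767 (-0.47, SE 0.07, limma adjusted p = 0.0103). Spi1, which encodes PU.1, a DNA-binding partner of Irf8, measured 12436 ± 677 and 10782 ± 637 (-0.21, SE 0.06, adjusted p = 0.107).

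Cd209a encodes a lectin related to human DC-SIGN and is used as a marker of type 2 and monocyte-derived dendritic cells (chromosome 8, 3743397 to 3748984). The normalized counts of Cd209a were 119.5, 238.9, 371.7 and 177.7 in control and 265.4, 546.2, 467.7 and 138.6 in knockout replicates 1 to 4. The spread within each group exceeded 3-fold, knockout replicate 4 lay near the lowest control, and the difference of 0.58 (SE 0.47, limma adjusted p = 0.522) was close to its SE. The other 6 Cd209 genes were all measured, and all 7 had differences above 0 with a median of 0.77. Cd209g rose, from 1145.5 ± 458.0 to 3427.8 ± 1268.0 (1.57, SE 0.36, adjusted p = 0.0491), and the other 6 did not pass. Of all tested genes 1.24% passed as higher in limma and 4.66% in DESeq2. For Cd209g, all knockout libraries but replicate 4 (1678.3) lay above the highest control (1763.0). The Cd209g call was lost in 7 of 8 fits that each left out a library (adjusted p 0.0274 to 0.132). It held without knockout replicate 4, where 3 Cd209 genes passed, as 3 did in DESeq2. Cd209f was the most abundant (3614.7 ± 1307.3 and 9923.0 ± 4061.2, adjusted p = 0.0819). Control replicate 1 and knockout replicate 4 were the lowest of their groups for both Cd209a and the sum of the other 6. Per 100 of the other Cd209 counts, Cd209a stood at 2.91 to 4.07 (control) and 1.36 to 3.05 (knockout), a ratio chosen after the values were seen. No 31-base word of Cd209a transcripts was shared with another gene.

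Ccr7, the receptor for the lymph node chemokines Ccl19 and Ccl21, is made by mature dendritic cells and by lymphocytes (chromosome 11, 99144196 to 99155077). The normalized counts of Ccr7 were 34.4, 20.3, 43.2 and 69.9 in control and 118.6, 68.1, 48.9 and 33.4 in knockout replicates 1 to 4. Knockout replicate 1 was far above the other knockout libraries, and the groups overlapped. The difference was 0.65 (SE 0.45, adjusted p = 0.452 in limma), moving between 0.33 without knockout replicate 1 and 0.93 without control replicate 4. The T cell receptor complex genes Cd3d, Cd3e, Cd3g, Trac and Trbc2, none at 0, summed to 116.2, 119.9, 125.0 and 261.6 in control and 442.0, 248.4, 227.4 and 172.0 in knockout replicates 1 to 4. Knockout replicate 1 and control replicate 4 were thus highest in their groups for Ccr7 and for these T cell receptor complex genes. The knockout libraries ranked identically for both. The sum over all 16 T and NK cell genes was instead highest in control replicate 1 (7324.6) and knockout replicate 4 (5969.7). Il7r, the most abundant of the 16, averaged 5101.5 in control and 3746.1 in knockout libraries. The sum of 9 B cell genes was highest where Ccr7 was, in control replicate 4 (23201.2) and knockout replicate 1 (29418.1). The parts of T cell and B cell RNA in the Ccr7 values were not tested.

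**Figure D3:**
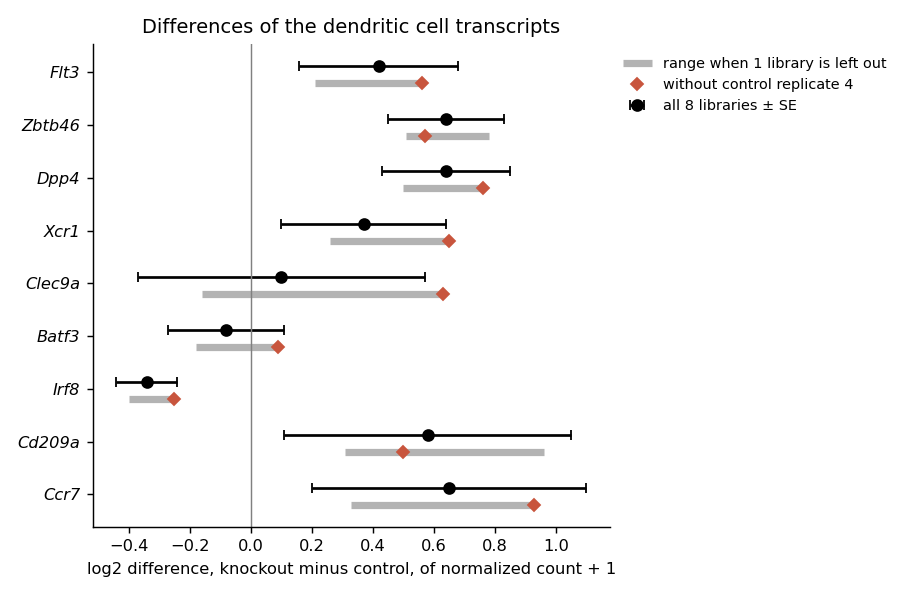
Log2 differences, knockout minus control, of the 9 transcripts (horizontal axis); black dots with bars are all 8 libraries ± SE, grey bars the range when each library is left out in turn, and red diamonds the value without control replicate 4. The Clec9a and Batf3 ranges cross 0, and without control replicate 4 the Clec9a difference is 0.63.

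Control replicate 4 was the highest control library for 7 of the 9 transcripts, all but Zbtb46 and Cd209a. MHC class II genes, which present antigen to helper T cells and are high in dendritic cells but also made by macrophages and B cells, stood apart in the same library. Cd74, the invariant chain, measured 129323, 108225, 134492 and 297191 in control and 134029, 97876, 103601 and 88214 in knockout replicates 1 to 4. H2-Ab1, a class II beta chain, measured 60409, 52822, 64317 and 158654 in control replicates and 40233 to 62754 in knockout libraries. The summed counts of 11 class II genes were 782496 in control replicate 4 and 266490 to 328398 in the other controls, beside 214030 to 326782 in the knockout libraries. Of these 11 genes 0 passed in limma, edgeR or DESeq2, and 0 had an unadjusted limma p under 0.05. The list median was -0.49, with 7 differences below 0 and 4 above. H2-Ab1 had a difference of -0.69 (SE 0.33, limma adjusted p = 0.265).

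**Figure D4:**
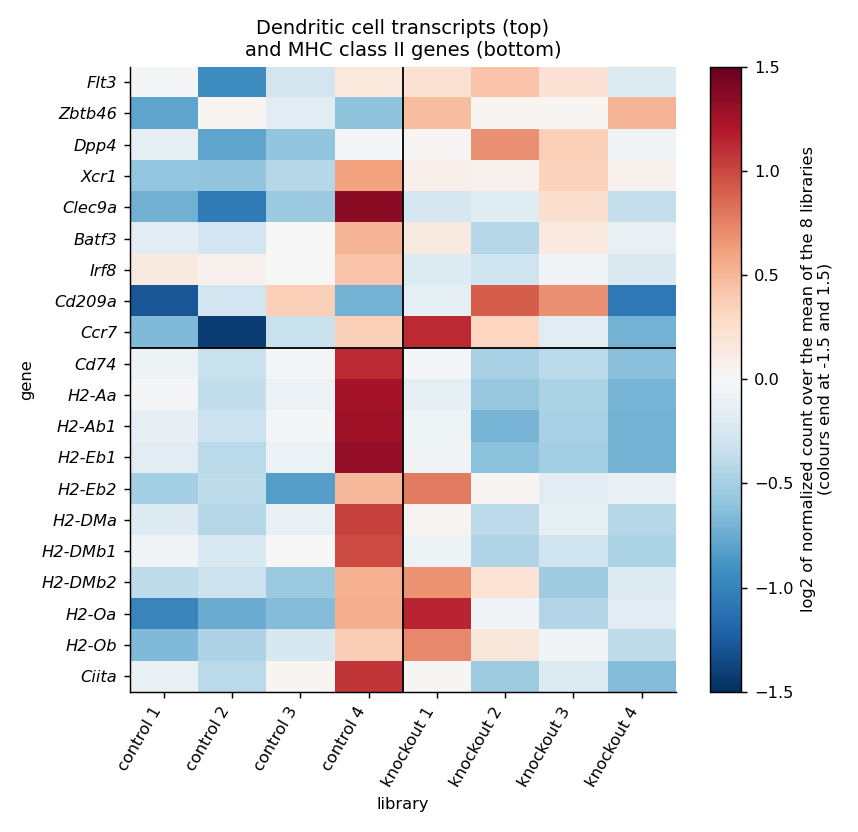
Colour shows the log2 of each normalized count over the mean of the 8 libraries, for the 9 dendritic cell transcripts (above the line) and 11 MHC class II genes (below it), with libraries in columns. Control replicate 4 is red for Clec9a, Xcr1 and most class II genes, while Zbtb46 and Cd209a are blue there.

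Other genes of the dendritic lineage were read from lists chosen with earlier results of these data known. Across 7 lists, 99 tested genes other than the 9 transcripts had a median difference of 0.14. Of these 99, 1 rose and 5 fell, beside 1.24% of all tested genes higher and 2.38% lower. All 6 are named here, Adgrg5 after its values were seen. Adgrg5, an adhesion receptor of the dendritic core signature, rose from 20.4 ± 2.75 to 42.7 ± 11.1 (1.01, SE 0.22, limma adjusted p = 0.0455). The metalloproteinase Adam19 fell from 4887.3 ± 723.2 to 3402.9 ± 75.3 (-0.51, SE 0.09, adjusted p = 0.0248). Slamf7, a receptor of activated immune cells, fell from 4321.6 ± 1005.7 to 2564.4 ± 149.6 (-0.73, SE 0.14, adjusted p = 0.0279). Cd83, a marker of mature dendritic cells and activated macrophages, fell from 6423.1 ± 1631.7 to 3593.9 ± 311.7 (-0.81, SE 0.16, adjusted p = 0.0351). The transcription factors Runx2 (-0.54, SE 0.11, adjusted p = 0.0358) and Bcl6 (-0.49, SE 0.09, adjusted p = 0.0263) fell as well. When libraries were left out singly, each of these 6 calls was lost in 6 to 8 of 8 fits. Over all 99 genes, whether or not among these 6, the number of calls was 0 without control replicate 1 or 3 or knockout replicate 1, 2 or 3. That number was 1 without knockout replicate 4, 3 without control replicate 4 and 6 without control replicate 2.

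By branch of the lineage, few genes passed. The shares of all tested genes stand beside the branch counts. In limma 1.24% were higher and 2.38% lower, and at an unadjusted limma p under 0.05 10.8% and 10.4%. DESeq2 called 4.66% higher and 6.23% lower among genes given an adjusted p. Each list includes those of the 9 transcripts that belong to it. Of 24 measured conventional dendritic cell genes, 21 of them outside the 9 transcripts, 1 rose, 2 fell and 21 did not pass, with a median of 0.35. At an unadjusted limma p under 0.05 there were 9 higher and 3 lower, and DESeq2 called 4 higher and 2 lower. Zbtb46 is among the higher genes in both counts, and Dpp4 among those at an unadjusted p. Of 17 measured type 1 genes, 13 of them outside the 9 transcripts, 0 passed in limma or edgeR (median -0.08). At an unadjusted limma p under 0.05 there were 8 (3 higher, 5 lower), and DESeq2 called 1 higher and 4 lower. Irf8 is among the lower genes in both counts. In limma 1 passed without control replicate 2 or 4. Plpp1, a lipid phosphatase, measured 1211.1 ± 159.8 and 1614.9 ± 130.8 (0.42, SE 0.10, adjusted p = 0.0593). The lysosomal thioesterase Ppt1 had a difference of -0.27 (SE 0.07, adjusted p = 0.0780), and Rab7b, the most abundant of the list, -0.40 (SE 0.14, adjusted p = 0.145).

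Type 2 genes showed 0 calls of 15 in limma or edgeR (median 0.18), with 5 higher and 3 lower at an unadjusted limma p under 0.05 and 2 higher and 1 lower in DESeq2. Clec10a, a galactose-binding lectin that macrophages also carry, came closest with 11838.7 ± 2448.7 and 19104.2 ± 2869.8 (0.70, SE 0.16, adjusted p = 0.0508). It passed in limma with a mean of at least 50 required (adjusted p = 0.0436) and with libraries scaled to equal totals (0.0444). Sirpa, an inhibitory receptor shared by macrophages and type 2 cells, had a difference of -0.30 (SE 0.09, adjusted p = 0.111). Of 23 measured genes of mature, migrating dendritic cells, Cd83 fell and 22 did not pass (median 0.14), with 6 higher and 3 lower at an unadjusted limma p under 0.05 and 2 higher and 3 lower in DESeq2. Cd80, a costimulatory ligand of T cells, had a difference of -0.47 (SE 0.11, adjusted p = 0.0510). Of 11 measured plasmacytoid dendritic cell genes Runx2 fell and 10 did not pass (median 0.17), with 2 higher and 1 lower at an unadjusted p and 1 each way in DESeq2. Siglech, a sialic acid receptor of plasmacytoid cells, measured 79.9 ± 24.6 and 164.5 ± 71.4 (0.98, SE 0.33, adjusted p = 0.142). Among 18 transcription factors of dendritic cell development, Bcl6 fell and 17 did not pass (median -0.06), with 3 higher and 6 lower at an unadjusted p and 1 higher and 4 lower in DESeq2. The 14 measured ligands and partners of the transcripts had 0 calls in limma or edgeR (median -0.07), 2 higher and 1 lower at an unadjusted limma p under 0.05, and 1 lower in DESeq2.

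**Figure D5:**
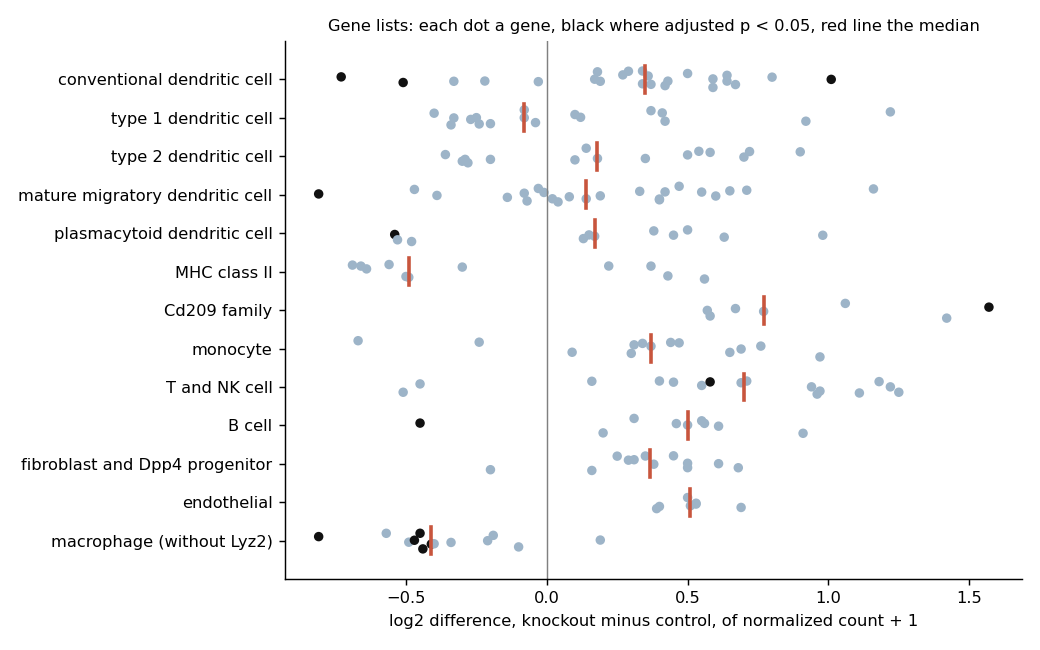
Log2 differences, knockout minus control, of single genes (dots) in each list; black dots have a limma adjusted p under 0.05 and red lines are medians. Lyz2 is left out of the macrophage row; macrophage genes lie mostly below 0, and T cell, B cell and endothelial genes mostly above 0.

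Markers of other cells are set beside these lists. Of all tested genes 1.24% passed as higher and 2.38% as lower in limma, and 4.66% and 6.23% in DESeq2. At an unadjusted limma p under 0.05 there were 10.8% higher and 10.4% lower. Of 16 T and NK cell genes Thy1, a surface glycoprotein also made by fibroblasts, rose from 522.7 ± 25.9 to 784.2 ± 67.3 (0.58, SE 0.08, limma adjusted p = 0.00824), 15 did not pass, and the median was 0.70. At an unadjusted limma p under 0.05 the T and NK cell list had 7 higher and 2 lower, and DESeq2 called 1 higher and 2 lower. Thy1 passed in all 8 fits that each left out a library, and 3 genes of the list passed without control replicate 4. Of 9 B cell genes Blnk, an adaptor that macrophages also make, fell (-0.45, SE 0.10, adjusted p = 0.0395), 8 did not pass, and the median was 0.50. The Blnk call was lost in 7 of those 8 fits, all but the one without control replicate 1, and with libraries scaled to equal totals (adjusted p = 0.0604). The B cell list had 1 higher and 1 lower at an unadjusted limma p under 0.05, and DESeq2 called 0 higher and 1 lower. The 13 monocyte genes had a median of 0.37, with 0 calls in limma or edgeR, 6 higher and 2 lower at an unadjusted limma p under 0.05, and 3 higher and 1 lower in DESeq2. In limma 1 of them passed without control replicate 1 or 4. Ccr2, the chemokine receptor of monocytes, measured 1953.9 ± 131.7 and 1651.2 ± 38.3 (-0.24, SE 0.06, adjusted p = 0.0598). The 12 fibroblast and progenitor genes had a median of 0.37, with 0 calls in limma or edgeR, 5 higher at an unadjusted limma p under 0.05 and 3 higher in DESeq2. In limma 1 of these passed without control replicate 1 or knockout replicate 1.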

How the data were processed

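Poly(A)-selected RNA was sequenced from 8 samples, grouped by the genotype in their titles. Per the submitters' processing notes, FastQC, cutadapt, Salmon, DESeq2 and mm10 were used, with no versions. The authors deposited normalized gene counts (a signal), reads divided by 1 factor per library: within a tolerance of 0.01 reads, 100.0% of values came out whole, though in control replicate 4 the step is near 1 and rounding cannot be told from it. The deposited comparison table gives a mean signal, a log2 fold change with control as numerator, its error and statistic (scores) and p-values, per the file headers.

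Genes were tested two-sided with limma 3.58.1 in R 4.3.3, with a mean-variance trend, on log2(value + 1), for genes with a mean of at least 10. Recovered reads went into edgeR 4.0.16 and DESeq2 1.42.0 as alternatives. Other alternatives were pseudocounts of 0.5 and 5, no filter or a mean of at least 50, equal library totals, the replicate block, and leaving out each library. Fits were also run on simulated counts with a fixed spread for all genes and no outlying library. That run cannot show how the fits behave with the uneven spread of these libraries. No 2 libraries of a group agreed within counting error (lowest chi-square per gene 8.86), and each counts as 1 replicate. Exon lengths, positions and 3′ untranslated regions came from GENCODE M21. The transcripts, lists and tests were chosen with earlier results of these data known. Named genes are the transcripts, the Cd209 genes, and, from each list, the 2 genes of lowest p plus the gene of highest mean; others are said to be chosen later, and not all are printed. A further listed gene is not reported here.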

Additional observations from a re-analysis of the deposited data

Results flagged for a closer look

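A library was singled out where its gap to the nearest other library of its group was a larger part of the group's range than Dixon's 95% critical value allows. Among 106 groups of 4 examined, 11 did so. Chance gives about 1 in 20 for independent groups. These groups were not independent, because all genes came from the same 8 libraries, so that rate does not measure an excess here. In control replicate 4, Clec9a measured 238.6 (next highest control 63.7), Xcr1 92.8 (next 45.5), Cd74 297191 (next 134492), H2-Ab1 158654 (next 64317) and H2-DMb1 11858.6 (next 5982.3). Knockout replicate 1 was high for Ighm at 23142.5 (next 10545.2), for the complement regulator Cd55 at 2310.4 (next 1187.2) and for the immediate early factor Jun at 29200.1 (next 21038.1). In knockout replicate 3, Xcr1 measured 77.6 beside 63.7 to 64.2 in the other knockout libraries. In knockout replicate 2, Bcl6 was highest of its group at 1423.1 and Thy1 lowest at 683.5.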

How the results depend on the processing

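Across the alternatives, Flt3, Zbtb46, Xcr1, Ccr7, Cd209a and Dpp4 kept differences above 0 and Irf8 below 0. Clec9a reversed, to -0.22 in edgeR and -0.23 in DESeq2, and ranged from -0.16 to 0.63 when 1 library was left out; Batf3 ranged from -0.18 to 0.09. Only DESeq2 called any of the 9, namely 2: Zbtb46 (0.63) and Irf8 (-0.35). Over all settings the adjusted p ran from 0.0214 to 0.336 for Zbtb46 and from 0.0154 to 0.271 for Irf8. All-gene calls, 573, became 1557 in DESeq2 and 163 to 502 with 1 library left out, and the 6 calls in the 7 dendritic cell lists became 22 and 0 to 6. The causes were not tested. With the replicate block there were 7 calls over all genes and 0 in the 7 dendritic lists and among the 9. Same-numbered samples did not deviate together (r across genes -0.293 to -0.036), so no pairing by number was seen. With 4 libraries per group, that check cannot show that the numbers carry no pairing. Of 240 counts for single lists under alternatives, 163 stayed within 1.5 times. Equal library totals gave an all-gene median difference of 0.06 in place of 0.00. Flt3 is not tested at a mean of at least 50. Counting error limits the scarce transcripts, with 24 to 62 reads for Flt3 and 20 to 135 for Ccr7.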

Other observations

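Some listed genes, chosen after their values were seen, varied between libraries like the transcripts above. Fscn1, an actin-bundling protein of mature dendritic cells that endothelial cells also make, measured 1959.7, 3412.1, 3131.5 and 2367.9 in control and 4799.2, 3234.1, 3100.3 and 4772.9 in knockout replicates 1 to 4. Its 4 control libraries ranked as for Zbtb46 and the endothelial sum. Esam, an adhesion molecule of endothelium and of some type 2 dendritic cells, measured 3999.6, 6307.9, 5779.9 and 4706.9 in control and 8111.4, 6218.7, 6211.3 and 8656.6 in knockout replicates 1 to 4. Neither passed the limma test (adjusted p = 0.180 for Fscn1 and 0.131 for Esam).

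Tlr11, a receptor that type 1 dendritic cells use to sense parasites, measured 22.9, 24.4, 33.0 and 125.8 in control and 57.1, 58.2, 57.4 and 17.2 in knockout replicates 1 to 4. Control replicate 4 was again the highest library, while knockout replicate 4 was the lowest of all 8. Naaa, a lysosomal amidase abundant in type 1 dendritic cells and macrophages, measured 2461.5, 2180.2, 2552.9 and 5062.3 in control replicates and 1798.7 to 2938.7 in knockout libraries. Pdcd1lg2, the PD-1 ligand PD-L2, reached 73.9 in control replicate 4 and at most 25.5 in the other 7 libraries.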
